A study of Homo sapiens with 21 samples.

Results

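The 6 genes MSH3, MSH6, MLH3, PMS1, PMS2 and EXO1, which encode proteins that recognise mismatched bases in DNA and start their removal, were followed through every probe annotated to 1 of them alone on an Illumina expression BeadChip. They are 6 of 20046 genes that had a probe of their own, and they have 12 probes of 47323: 2 for MSH3, 1 for MSH6, 2 for MLH3, 1 for PMS1, 3 for PMS2 and 3 for EXO1. Each probe was read on its own. Total RNA of 21 cultured samples had been hybridised, 1 array per sample and 3 arrays in each of 7 groups. HCT116, a colorectal carcinoma line known to be deficient in mismatch repair, and MCF10A, a non-transformed breast epithelial line, were present as control samples. KLE, an endometrial carcinoma line, carried hairpin 062 or 059 against MSH3, hairpin 603 or 543 against MSH6, or the control hairpin shCTRL. All 15 KLE samples thus carried a short hairpin RNA, which lowers a matching messenger RNA, and the labels of the HCT116 and MCF10A controls name none. The KLE titles carry the letters A, B and C, which join 1 array of each of the 5 KLE groups. The labels do not say whether arrays of a group came from separate cultures, so the p-values below measure the spread between these samples, which may be technical. They name neither the vector nor the time after its delivery, nor whether the KLE lines are clones or pools.

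Mismatch repair corrects bases that a DNA polymerase has paired wrongly and small loops left where it slipped on a repeat. MSH6 takes part in the MutS complex that finds mispaired bases and very small loops, and MSH3 in the related complex that prefers larger loops. MLH3, PMS1 and PMS2 are alternative partners in the MutL complexes that are then recruited: PMS2 carries the endonuclease of the main one, MLH3 is best known from meiotic crossing over, and the role of PMS1 in repair is less clear. EXO1 is the exonuclease that removes the strand with the error, after which the sliding clamp, its loader, a single-strand binding protein, a polymerase and a ligase rebuild it.

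Intensities spanned 66.27 at the lowest array minimum to 24680 at the highest array maximum, and array medians ran over 87.71 to 122.2. Levels below are log2 of the intensity plus 16 after quantile normalization, on which every array has its median at 6.92. Within a group, arrays correlated at 0.9686 to 0.99651 over all probes, and no 2 arrays were identical. The number of arrays limits the precision. Marker genes were read as median percentiles within the arrays of a line. Of 5 markers of simple epithelium, 4 in HCT116, 2 in MCF10A and 4 in KLE lay above the 90th percentile. The 3 measured basal markers did so in MCF10A only, and 2 of 3 Müllerian markers in KLE only. None of 5 colon markers did so in HCT116, where CDX2 lay at 87.7. Leukocyte, fibroblast and endothelial lists had at most 1 such gene, each in MCF10A (CD14 and DCN).

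The E2F factors, which switch on genes of DNA synthesis before S phase, bind words of the form TTTCCCGC, TTTCGCGC, TTTGCCGC and TTTGGCGC. These 4 words were searched on both strands in RefSeq promoter windows of GRCh38.p14, 250 bases before to 50 after a gene's start, because the 6 genes serve replicating DNA. All 6 genes had windows, 11 in all, and 4 genes (5 windows) held a match, while 3.31% of 35116 windows of all genes and 3.99% of 27305 genes did. A match describes the letters only and is not a bound site. MSH3 held 2 matches, to different words on opposite strands, that overlap, PMS2 had a match seen from each of 2 starts, and MLH3 and PMS1 had none in their windows. The 30 bases around each match are given 5′ to 3′ along the gene's strand, with the matching bases in capitals. Positions after the start count the start base itself as the first.
MSH3, chr5:80654536-80654565, plus strand, 107 to 96 bases before the start: gcggtcaagTTTGGCGCGAAAttgtggccg
MSH6, chr2:47783137-47783166, plus strand, 4 to 11 bases after the start: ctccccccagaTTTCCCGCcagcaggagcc
PMS2, chr7:6009131-6009160, minus strand, 43 to 36 or, from the other start, 100 to 93 bases before it: cgggaagtattTTTGCCGCcccgcccggaa
EXO1, chr1:241848197-241848226, plus strand, 5 to 12 bases after a transcript start that lies downstream of the gene's first annotated base: aaaggtcagccTTTCGCGCgctgtgtaggc

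MSH6, on chromosome 2 from 47783145 to 47810101 (GRCh38.p14), was the member with the largest hairpin effect. Its single probe, ILMN_1729051, ran from percentile 85.8 to 97.4 of its array's probes. With hairpin 603 the levels were 10.18, 9.68 and 9.77 in letters A, B and C. Hairpin 543 gave 9.01, 8.41 and 8.65, and shCTRL gave 11.13, 10.55 and 10.74. All 6 arrays with an MSH6 hairpin lay below all 3 shCTRL arrays, and the arrays of 543 lay below those of 603. With 543 MSH6 fell, at a log2 difference of -2.12 ± 0.18 (SE, n = 3 each, limma, adjusted p = 6.1e-05), which leaves 23% of the shCTRL signal. With 603 it fell as well, at a log2 difference of -0.93 ± 0.18 (n = 3 each, limma, adjusted p = 0.021), leaving 52.5%. These percentages are of a signal that still includes the array's background, so they are not percentages of messenger RNA. In such bulk samples, fewer cells with the transcript and less of it per cell cannot be told apart.

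The drop repeated within each letter. With 603 the difference from shCTRL was -0.95 in A, -0.87 in B and -0.97 in C, and with 543 it was -2.12, -2.14 and -2.10. For MSH6 the A array was the highest of its group in every KLE group but 062. Set directly against each other, 603 left MSH6 higher than 543 by 1.19 ± 0.18 (n = 3 each, limma, adjusted p = 0.0075), a 2.28-fold gap. That comparison uses no shCTRL array, and its difference was 1.17, 1.27 and 1.12 within A, B and C. The call was lost under median scaling, at 0.99, on values as deposited, at 0.93, and with only these groups in the fit (limma, n = 3 each, adjusted p of 1, 1 and 0.12). With the letter as a block and all KLE arrays it was kept (limma, n = 3 each, adjusted p = 9.9e-05).

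MSH6 was the single member called with each of its hairpins, 1 of 12 in both cases. In the same fits 0.216% of all 29651 probes were called with 543 and 1.57% with 603, or 0.739% and 4.87% with the letter as a block. Between 603 and 543, MSH6 was again 1 of 12, against 0.705% of all probes (2.19% with the block). Without the block the 603 result rests on few arrays: its adjusted p missed the threshold when shCTRL array A or C, or 603 array B or C, was left out, and ranged over 0.015 to 0.097 across the 6 omissions. The 543 result passed under all 6, at 6.6e-05 to 0.00078. With the letter as a block and all arrays, the adjusted p was 0.00029 with 603 and 1.5e-06 with 543 (limma, n = 3 each). Under median scaling in place of quantile normalization neither was called, at larger differences of -2.23 with 543 (limma, adjusted p = 0.14) and -1.24 with 603 (limma, adjusted p = 0.32), and on values as deposited neither was called either.

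The MSH3 hairpins left MSH6 near its control level. Hairpin 062 gave MSH6 levels of 10.77, 10.73 and 10.82, and 059 gave 11.08, 10.83 and 10.79, within or near the spread of shCTRL. The differences from shCTRL were -0.03 with 062 (95% interval -0.42 to 0.35) and 0.09 with 059 (-0.29 to 0.48). With the letter as a block the intervals were narrower, at -0.25 to 0.18 with 062 and -0.12 to 0.31 with 059. Shifts within the bounds of a fit could not be told from no change in that fit. The difference with 059 was below 0 under median scaling and on values as deposited. Across the 7 groups, MSH6 was highest in HCT116 followed in order by 059, shCTRL, 062, MCF10A, 603 and 543. Neighbours among the first 4 differed by less than the larger of their SDs, while each of the last 3 steps was larger than both SDs.

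**Figure D1:**
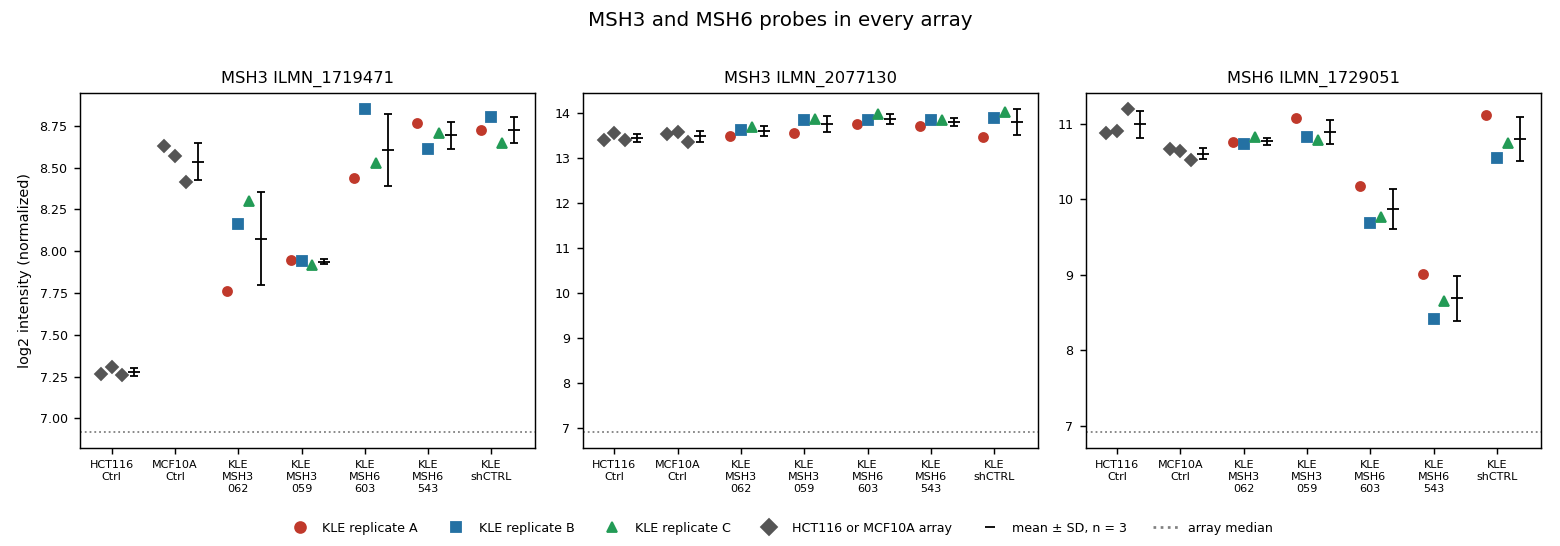
Log2 normalized intensity (y axis) of the 2 MSH3 probes and the MSH6 probe in all 21 arrays, by group, with KLE arrays marked by letter and black bars for mean ± SD (n = 3). The MSH6 probe is low in both MSH6 hairpin groups and lower with 543, MSH3 ILMN_1719471 is low in HCT116 and in both MSH3 hairpin groups, and MSH3 ILMN_2077130 stays between 13.34 and 14.02 throughout.

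MSH3, on chromosome 5 from 80654652 to 80876815, has 2 probes annotated to the same transcript, and they gave different results: ILMN_1719471 fell with 059, and ILMN_2077130 was not called with either hairpin. ILMN_1719471 ran from percentile 71.3 to 88.9. In letters A, B and C it read 7.76, 8.16 and 8.30 with hairpin 062, then 7.95, 7.94 and 7.92 with 059, and 8.72, 8.80 and 8.65 with shCTRL. Every array with an MSH3 hairpin was below every shCTRL array. The 059 arrays lay close together and those of 062 were spread out, with A the lowest.

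With 059 this probe fell, at a log2 difference of -0.79 ± 0.13 (SE, n = 3 each, limma, adjusted p = 0.026), 57.9% of the shCTRL signal. It was 1 of 12 members called, against 0.293% of all probes (0.927% with the letter block). Without the block, the call was lost when any 1 of the 6 arrays was left out, whether shCTRL or 059 and whether A, B or C, with adjusted p of 0.054 to 0.15, although the difference stayed between -0.83 and -0.75. The call was also lost under median scaling (limma, adjusted p = 0.18) and on values as deposited (limma, adjusted p = 0.35). With the letter as a block and all arrays, the 059 difference was called (limma, n = 3 each, adjusted p = 0.011). With 062 the difference was -0.65 ± 0.13, 63.7% of shCTRL, and the adjusted p of 0.076 (limma, n = 3 each) missed the threshold. With the letter as a block it passed at 0.032. No member was called with 062 without the block (1 of 12 had an unadjusted p under 0.05), against 0.226% of all probes, or 0.914% with the block.

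Within letters ILMN_1719471 differed from shCTRL by -0.96, -0.64 and -0.35 with 062 and by -0.77, -0.86 and -0.73 with 059, in A, B and C. The 062 array of letter A carried the largest drop, and without it the 062 difference was -0.49 with an adjusted p of 0.044 (limma). That array moved the whole comparison: 67 probes were called with it and 440 without it. The hairpins did not separate from each other: 062 minus 059 was 0.14 (95% interval -0.14 to 0.41). No member was called between them (limma, 1 of 12 with an unadjusted p under 0.05), against 0.0742% of all probes (0.799% with the block).

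ILMN_2077130 lay at or above percentile 99.6 in all arrays, close to the top of the scale, with deposited intensities of 10290 to 22300. It read 13.48, 13.62 and 13.68 with 062, then 13.56, 13.83 and 13.87 with 059, and 13.47, 13.88 and 14.02 with shCTRL. The groups overlapped. Its difference from shCTRL was -0.19 with 062 (95% interval -0.47 to 0.09) and -0.04 with 059 (-0.32 to 0.24), and neither was called. With the letter as a block the 062 interval was -0.35 to -0.04, still without a call (limma, n = 3 each, adjusted p = 0.27). Within A, B and C the 062 difference was 0.01, -0.26 and -0.34. The 059 interval with the block was -0.19 to 0.12. The intervals of the 2 probes do not overlap with 059, where that of ILMN_1719471 was -1.06 to -0.51. For 062 the interval of ILMN_1719471 was -0.93 to -0.37, and the intervals of both probes overlap. With the block it was -0.91 to -0.39, and the 062 intervals do not overlap. Whether ILMN_2077130 is saturated, or reads another transcript, was not tested.

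The MSH6 hairpins left both MSH3 probes without a call. ILMN_1719471 differed from shCTRL by -0.12 with 603 (95% interval -0.40 to 0.16) and by -0.03 with 543 (-0.31 to 0.25). ILMN_2077130 differed by 0.07 with 603 (-0.21 to 0.35) and by 0.01 with 543 (-0.27 to 0.29). Pooling hairpins by target compares the groups with no shCTRL array. Its n = 6 joins 3 arrays of each of 2 hairpins, and its SE measures spread within hairpin groups, not between hairpins. The p-values thus cover these hairpins and not a target at large. On MSH6 the hairpins 603 and 543 themselves differed by 1.19. MSH3 hairpins minus MSH6 hairpins gave -0.64 ± 0.09 for MSH3 ILMN_1719471 (n = 6 each, limma, adjusted p = 0.0057) and 1.55 ± 0.12 for MSH6 (limma, n = 6 each, adjusted p = 0.00036). Both passed with any 1 of the 12 arrays left out, at adjusted p of 0.0016 to 0.021 for MSH3 and 0.00015 to 0.0023 for MSH6. These were 2 of 12 members called, against 1.22% of all probes. Both read a gene that the hairpins target, and no probe of the other genes was called without the block. Under median scaling the adjusted p was 0.33 for MSH3 ILMN_1719471 and 0.14 for MSH6 (limma, n = 6 each).

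**Figure D2:**
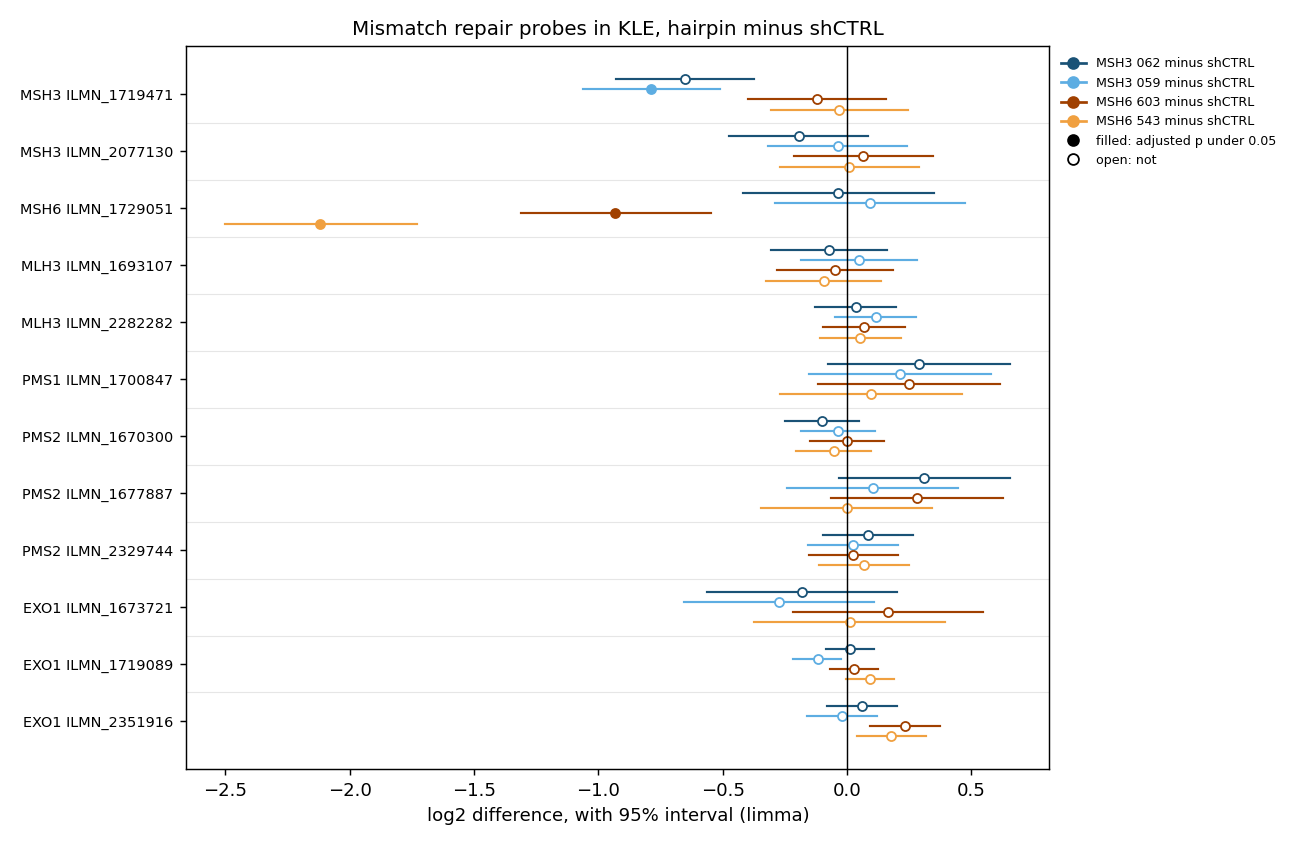
Log2 difference from shCTRL (x axis) of each of the 12 probes (rows) for the 4 hairpins, with 95% intervals from limma and filled points for adjusted p under 0.05. The 3 filled points are MSH6 with 603 and 543 and MSH3 ILMN_1719471 with 059, and probes of the other 4 genes all lie between -0.27 and 0.31.

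The MutL partners MLH3, PMS1 and PMS2 had 6 probes, and none was called with any hairpin or had an unadjusted p under 0.05 in limma without the block. With the block PMS2 ILMN_1677887 with 062 had an unadjusted p of 0.037 (adjusted p = 0.35). MLH3 lies on chromosome 14 from 75013775 to 75051467. Its probe ILMN_1693107 ranged over percentiles 37.5 to 71.9 and ILMN_2282282 over 6.29 to 66.8, and they exceeded their array's median in 18 and 13 of 21 arrays. At such levels a probe's own transcript and background are hard to separate. The largest of the 8 MLH3 differences from shCTRL was 0.12 with 059, on ILMN_2282282 (95% interval -0.05 to 0.28).

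PMS1, on chromosome 2 from 189784450 to 189877629, was well above the array median, with ILMN_1700847 between percentiles 75.6 and 88. It read 8.35, 8.02 and 7.88 with 062, then 7.75, 8.09 and 8.18 with 059, in letters A, B and C. With 603 it read 7.95, 8.05 and 8.13, and with 543 it read 8.15, 7.74 and 7.77, against 8.04, 7.49 and 7.84 with shCTRL. The shCTRL array of letter B was the lowest of all 15 KLE arrays, and every hairpin group overlapped shCTRL. The 4 differences were 0.29 with 062 (95% interval -0.07 to 0.66), 0.21 with 059 (-0.15 to 0.58), 0.25 with 603 (-0.12 to 0.62) and 0.10 with 543 (-0.27 to 0.46).

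PMS2, on chromosome 7 from 5970925 to 6009106, has near-identical pseudogene copies, so what its 3 probes read is uncertain. ILMN_1677887, between percentiles 79.6 and 89.7, gave 8.68, 8.73 and 8.75 with 062, all above the 3 shCTRL arrays at 8.44, 8.46 and 8.32. Its levels with 059 were 8.54, 8.53 and 8.45, which overlap shCTRL. With 603 it read 8.40, 8.97 and 8.69 and with 543 it read 7.99, 8.60 and 8.62, in both cases lowest in letter A and overlapping shCTRL. The differences from shCTRL were 0.31 with 062 (95% interval -0.03 to 0.66), 0.10 with 059 (-0.24 to 0.45), 0.28 with 603 (-0.06 to 0.63) and 0.00 with 543 (-0.35 to 0.34). The remaining probes were dim: ILMN_2329744 exceeded its array's median in 15 of 21 arrays and ILMN_1670300 in 4. Their differences from shCTRL lay within -0.10 to 0.09.

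**Figure D3:**
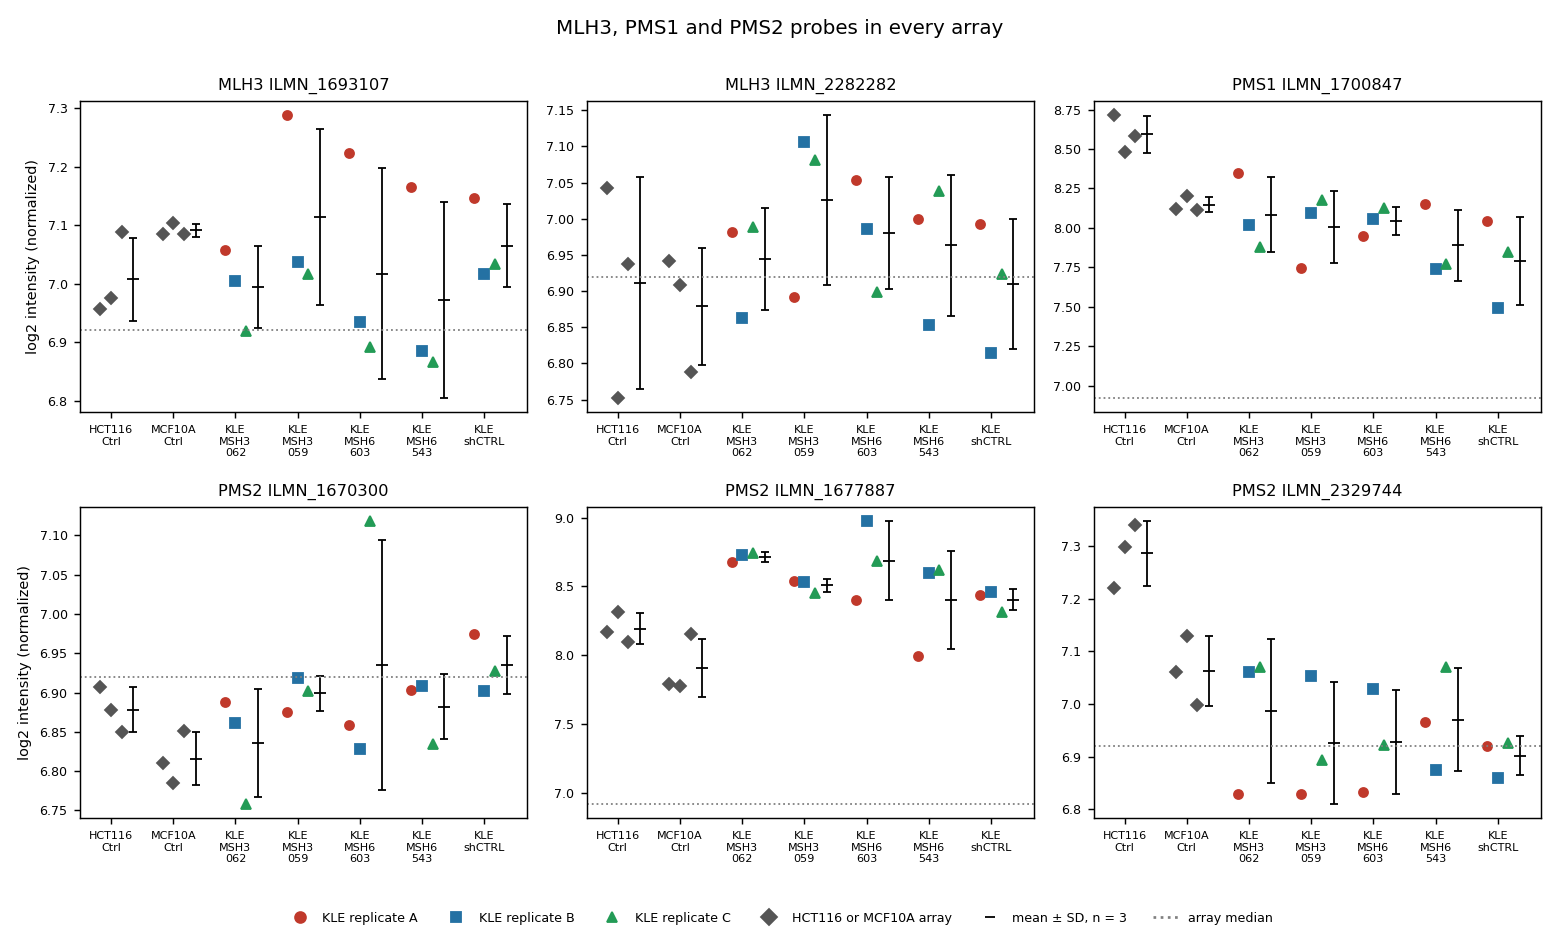
Log2 normalized intensity (y axis, a different range in each panel) of the MLH3, PMS1 and PMS2 probes in all arrays, by group, with the array median at 6.92 dotted and black bars for mean ± SD (n = 3). PMS1 and the PMS2 probe ILMN_2329744 are highest in HCT116, and every hairpin group overlaps shCTRL on all 6 probes, except that the 062 arrays lie above shCTRL on PMS2 ILMN_1677887 and below it on PMS2 ILMN_1670300.

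EXO1, on chromosome 1 from 241847986 to 241889939, was not called with any hairpin against shCTRL. Its 2 brighter probes had lower means with the MSH3 than with the MSH6 hairpins. This gap was called on both with the letter block and on neither without it. The dim probe ILMN_1719089 had lower means too, near background, and was not called. ILMN_1673721, between percentiles 85.6 and 92.7, read 8.65, 8.65 and 8.55 with 062 and 8.78, 8.41 and 8.38 with 059. It read 9.35, 8.76 and 8.77 with 603, then 9.13, 8.65 and 8.64 with 543, and 8.97, 8.76 and 8.66 with shCTRL. The A arrays were the highest of their group or tied for it, most of all with 603. ILMN_2351916, which is annotated to the same transcript and lay between percentiles 69.9 and 80.7, read 7.25, 7.47 and 7.41 with 062 and 7.26, 7.28 and 7.35 with 059. With 603 it read 7.65, 7.46 and 7.53 and with 543 it read 7.51, 7.45 and 7.52, against 7.36, 7.26 and 7.33 with shCTRL, so both MSH6 groups lay above shCTRL.

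MSH3 hairpins minus MSH6 hairpins came to -0.32 ± 0.12 for ILMN_1673721 (limma, n = 6 each, adjusted p = 0.34) and -0.19 ± 0.05 for ILMN_2351916 (limma, n = 6 each, adjusted p = 0.082). The remaining probe, ILMN_1719089, which exceeded its array's median in 9 of 21 arrays, gave -0.11 ± 0.03 (limma, n = 6 each, adjusted p = 0.13). As in the pooled comparison above, these SEs do not measure spread between hairpins of a target. With the letter as a block the adjusted p became 0.017, 0.042 and 0.066, so 2 EXO1 probes joined MSH3 and MSH6 for 4 of 12 called, against 5.97% of all probes. Without the arrays of letter A and with no block, ILMN_1673721 was called too, at -0.21 (limma, adjusted p = 0.012). Within each letter the 2 brighter probes had lower values with the MSH3 hairpins. The differences were -0.52, -0.18 and -0.24 for ILMN_1673721 in A, B and C, and -0.33, -0.09 and -0.14 for ILMN_2351916. ILMN_1719089 was lower too, with differences of -0.07, -0.13 and -0.14. However, it lay below the median in every array with an MSH3 hairpin, at percentiles 2.7 to 49. With the MSH6 hairpins it lay at percentiles 38.4 to 60.2. It thus passed the filter through other KLE arrays. Being near background, it is not counted as a further reading of the gap.

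Against shCTRL, ILMN_1673721 differed by -0.27 with 059 (95% interval -0.66 to 0.11), and by -0.18 with 062 (-0.56 to 0.20), and by 0.17 with 603 (-0.22 to 0.55) and 0.01 with 543 (-0.37 to 0.40). With the letter as a block the 059 interval was -0.48 to -0.07, without a call (limma, n = 3 each, adjusted p = 0.24). Its difference was -0.19, -0.35 and -0.28 within A, B and C. The block intervals with 062, 603 and 543 included 0. ILMN_2351916 differed by -0.02 with 059 (-0.16 to 0.12) and 0.06 with 062 (-0.08 to 0.20), and by 0.23 with 603 (0.09 to 0.37) and 0.18 with 543 (0.04 to 0.32). ILMN_1719089 differed by -0.12 with 059 (-0.22 to -0.02), lower than shCTRL in 3 of 3 letters, and by 0.01 with 062 (-0.08 to 0.11), 0.03 with 603 (-0.07 to 0.13) and 0.09 with 543 (-0.00 to 0.19). On ILMN_1719089 the 059 arrays lay at percentiles 2.7 to 9.61, near background. None of these 12 differences passed the adjusted threshold. Without the block the lowest adjusted p were 0.12 with 603 on ILMN_2351916, 0.59 with 059 on ILMN_1719089 and 0.66 with 543 on ILMN_2351916 (limma, n = 3 each).

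EXO1 is a gene of the S and G2 phases, so proliferation genes were read beside it. Each was read by its brightest probe, while the values over all probes include dim probes and are not a like background. In the comparison of MSH3 with MSH6 hairpins, 2 of 12 S-phase genes were lower (MCM3 by a log2 difference of -0.32 and RRM2 by -0.41) and 1 of 12 G2/M genes (CCNA2, at -0.46), and none was higher, against 1.22% of all probes called. The list medians were -0.12 and -0.17, against -0.0046 over all probes. With the block the G2/M count was 3, with AURKA at -0.23 and AURKB at -0.38 added, against 5.97% of all probes. Against shCTRL neither list had a call with any hairpin without the block. With the block 603 had 1 G2/M gene higher and 1 lower. The 5 genes MCM3, RRM2, CCNA2, AURKA and AURKB were named after their values were seen, and their part in the EXO1 gap was not tested.

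**Figure D4:**
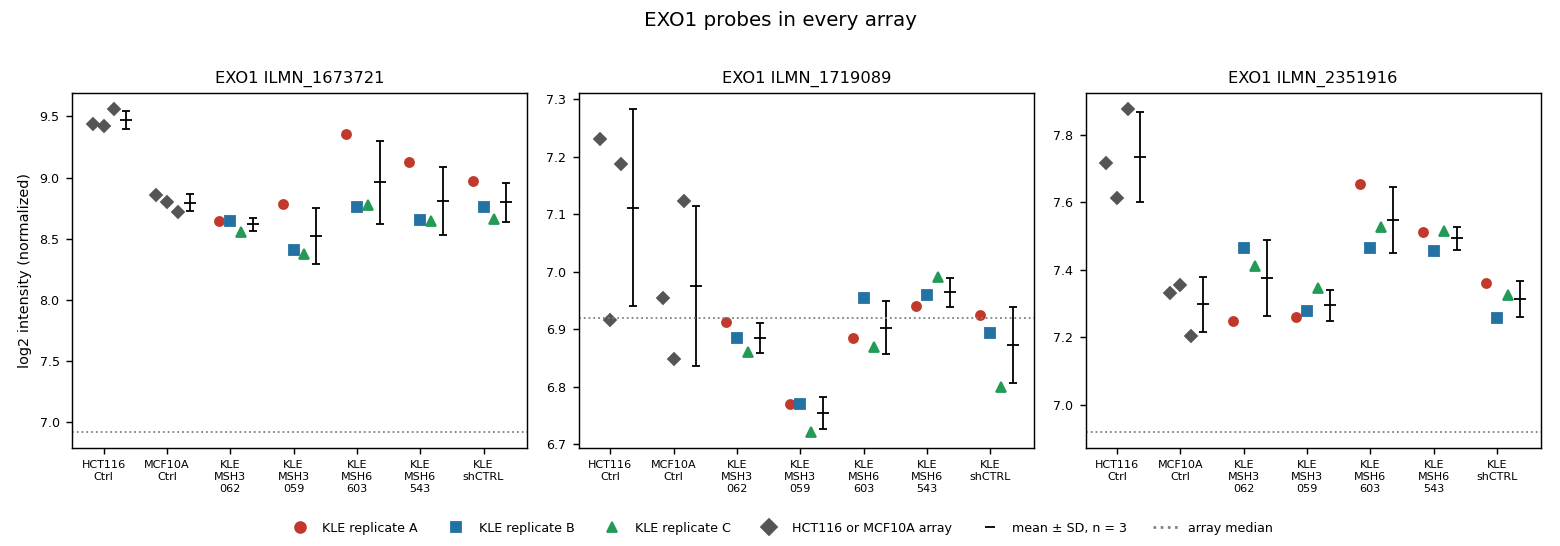
Log2 normalized intensity (y axis, a different range in each panel) of the 3 EXO1 probes in all arrays, by group, with KLE arrays marked by letter and black bars for mean ± SD (n = 3). HCT116 has the highest mean on all 3 probes, on ILMN_1719089 by less than its SD. The MSH3 hairpin groups have lower means than the MSH6 hairpin groups on all 3 probes, of which ILMN_1719089 lies near background.

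Letter A stood apart from B and C in KLE, on the members about as often as on the whole array. In the fit with letter and group, 32.1% of all probes differed between A and the mean of B and C, 17.2% higher and 14.9% lower, and 4 of 12 members did, a share near that background. MSH6 was higher in A by 0.33 (limma, 5 arrays of A against 10 of B and C, adjusted p = 0.002), and above both other arrays in 4 of 5 groups. EXO1 ILMN_1673721 was higher by 0.35 (limma, adjusted p = 0.00089), also in 4 of 5 groups. MLH3 ILMN_1693107 was higher by 0.22 (limma, adjusted p = 0.00086) in 5 of 5 groups. MSH3 ILMN_2077130 was lower by -0.25 (limma, adjusted p = 0.0017) in 5 of 5 groups. With the letter in the fit the residual SD was 0.133 for MSH6, against 0.233 without it, and 0.124 for EXO1 ILMN_1673721, against 0.233. For MSH3 ILMN_1719471 it was 0.166 either way, and for PMS1 it was 0.23 with the letter, against 0.222 without it. In letter A 7 of 12 G2/M genes were higher and 2 lower, and 5 of 12 S-phase genes were higher and 2 lower. The labels do not say what the letters stand for, and the part of these genes in the members' shift was not tested.

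Without the 5 arrays of letter A, an alternative chosen after the data were seen that leaves 2 arrays per group, further members passed against shCTRL. With 059, 3 of 12 were called, adding PMS1 at 0.47 and EXO1 ILMN_1673721 at -0.32 to MSH3 ILMN_1719471, against 9.4% of all probes. With 062, 3 of 12 were called, both MSH3 probes at -0.49 and -0.30 and PMS2 ILMN_1677887 at 0.35, against 13.9%. With 603, 3 of 12 were called, MSH6 with PMS1 at 0.42 and PMS2 ILMN_1677887 at 0.44, against 13.6%. With 543, MSH6 stayed alone, against 4.42%. The share of all probes called was larger as well in each of these comparisons.

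Between the lines, differences were common on the whole array, and the largest difference of a member was that of MSH3 ILMN_1719471. It read 7.27, 7.31 and 7.26 in HCT116, against 8.63, 8.57 and 8.41 in MCF10A and 8.72, 8.80 and 8.65 in KLE with shCTRL. HCT116 lay below every other array of the study on this probe. Its log2 difference was -1.45 ± 0.07 from KLE (limma, n = 3 each, adjusted p = 2.1e-07), 36.7% of the KLE signal, and -1.26 ± 0.07 from MCF10A (limma, n = 3 each, adjusted p = 7.1e-07). On ILMN_2077130 HCT116 read 13.40, 13.55 and 13.38, against 13.52, 13.58 and 13.34 in MCF10A and 13.47, 13.88 and 14.02 in KLE. That probe was not called: HCT116 differed by -0.34 from KLE (95% interval -0.64 to -0.05, limma, n = 3 each, adjusted p = 0.058) and by -0.03 from MCF10A (-0.33 to 0.26), and MCF10A differed by -0.31 from KLE (-0.60 to -0.01). Without KLE array A both differences from KLE passed, at -0.50 for HCT116 (limma, adjusted p = 0.00079) and -0.47 for MCF10A (limma, adjusted p = 0.0013), and that for MCF10A also passed under median scaling (limma, adjusted p = 0.048). The HCT116 intervals of this probe over all arrays lie apart from those of ILMN_1719471, which were -1.60 to -1.29 and -1.41 to -1.10.

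MSH6 read 10.88, 10.91 and 11.19 in HCT116, against 10.67, 10.64 and 10.52 in MCF10A and 11.13, 10.55 and 10.74 in KLE. HCT116 arrays were above all MCF10A arrays and overlapped those of KLE. The differences were 0.39 from MCF10A (95% interval 0.07 to 0.70, limma, n = 3 each, adjusted p = 0.063) and 0.19 from KLE (-0.13 to 0.50), and neither passed. Without KLE array A the difference from KLE was 0.35 and passed (limma, adjusted p = 0.018), and with only HCT116 and MCF10A in the fit their difference passed (limma, n = 3 each, adjusted p = 0.0098).

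Of the 11 probes tested between lines (PMS2 ILMN_1670300 was too dim to enter), 5 were called between HCT116 and KLE, against 44.4% of 27745 probes (23.6% higher and 20.8% lower), so the count is near the background. The 4 higher ones were PMS1 by 0.80, EXO1 ILMN_1673721 by 0.68 and ILMN_2351916 by 0.42, and PMS2 ILMN_2329744 by 0.38. MCF10A differed from KLE on 3 of 11, against 43.2% of all probes (21.7% higher and 21.5% lower): PMS1 was higher by 0.35, PMS2 ILMN_2329744 higher by 0.16 and PMS2 ILMN_1677887 lower, at -0.50. Without KLE array B or C or MCF10A array 2 this count was 1. HCT116 differed from MCF10A on the same 5 probes as from KLE, against 32.6% of all probes (17.7% higher and 14.9% lower), and on 3 without HCT116 array 3. Over all arrays PMS1 was higher in HCT116 than in MCF10A by 0.45, EXO1 ILMN_1673721 and ILMN_2351916 by 0.68 and 0.44, and PMS2 ILMN_2329744 by 0.22. The PMS1 call was lost without HCT116 array 1 or 3 or MCF10A array 1 or 3, under median scaling and on values as deposited.

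PMS1 read 8.71, 8.48 and 8.58 in HCT116, against 8.12, 8.20 and 8.12 in MCF10A and 8.04, 7.49 and 7.84 in KLE, with no overlap between the 3 lines. The PMS1 difference between MCF10A and KLE was near the threshold (limma, n = 3 each, adjusted p = 0.045), and its call was kept in 1 of the 6 single-array omissions, that of KLE array A. The PMS2 probes disagreed: ILMN_1677887 read 8.17, 8.32 and 8.09 in HCT116, against 7.79, 7.78 and 8.16 in MCF10A and 8.44, 8.46 and 8.32 in KLE, where its mean was highest, while ILMN_2329744 was lowest in KLE at 6.92, 6.86 and 6.93. The call of ILMN_2329744 between MCF10A and KLE was kept only without MCF10A array 3 among the 6 omissions, and that between HCT116 and MCF10A was lost without HCT116 array 3 or MCF10A array 3. EXO1 ILMN_1673721 read 9.44, 9.43 and 9.56 in HCT116, against 8.86, 8.80 and 8.72 in MCF10A and 8.97, 8.76 and 8.66 in KLE. MCF10A and KLE did not separate on it, at -0.00 (95% interval -0.19 to 0.19).

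**Figure D5:**
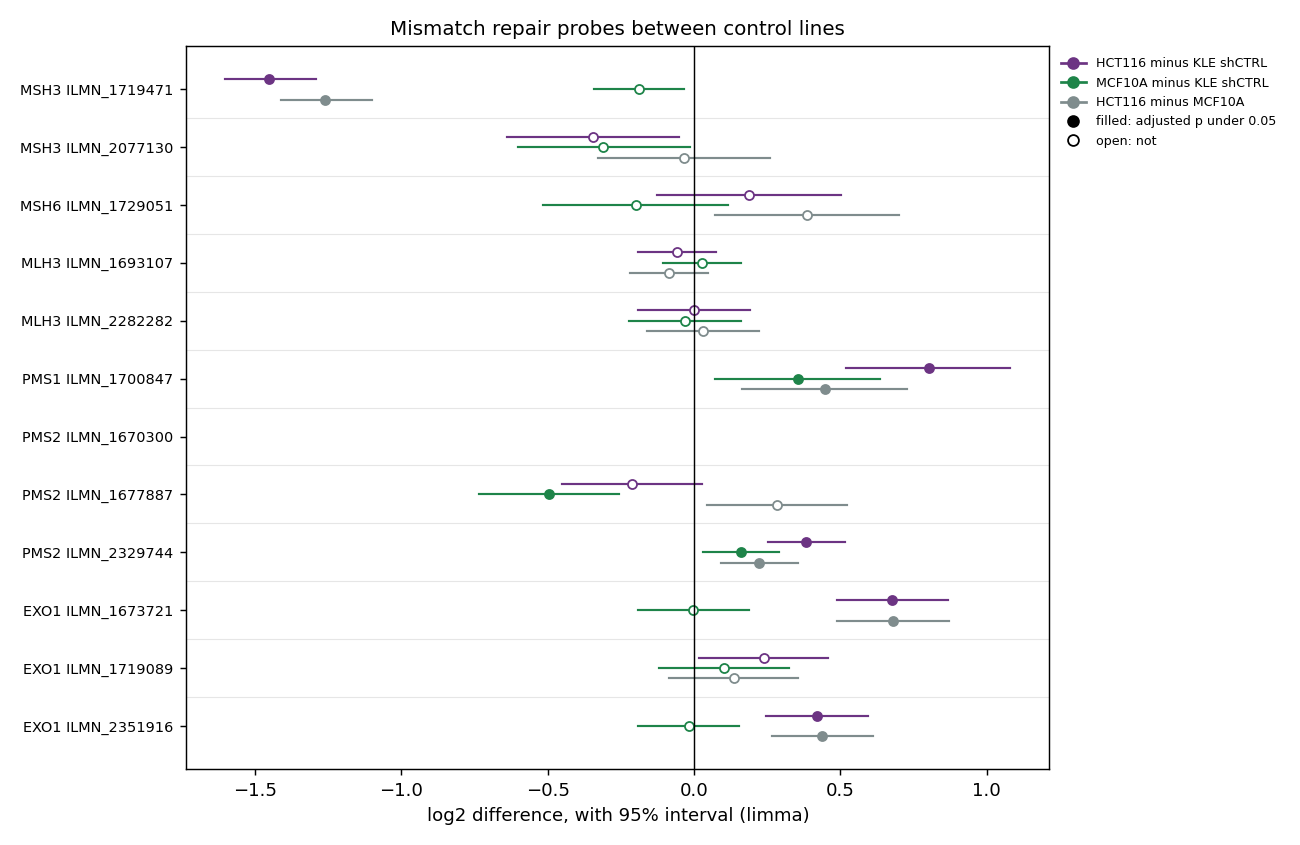
Log2 difference (x axis) of the 11 probes tested between lines (rows, with PMS2 ILMN_1670300 empty) for HCT116 minus KLE shCTRL, MCF10A minus KLE shCTRL and HCT116 minus MCF10A, with 95% intervals from limma and filled points for adjusted p under 0.05. MSH3 ILMN_1719471 lies at -1.45 and -1.26 in the HCT116 comparisons, and PMS1, PMS2 ILMN_2329744 and the 3 EXO1 probes lie above 0 in both, with EXO1 ILMN_1719089 open.

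The genes that act after excision were read from a list of 14: PCNA, RFC1 to RFC5, RPA1 to RPA3, POLD1 to POLD4 and LIG1, each by its brightest probe. The shares and medians over all probes include dim probes, whose differences are compressed, so they are not a like background. In HCT116 8 were higher than in KLE and 1 lower, with a list median of 0.32 against 0.023 over all probes, of which 23.6% were higher and 20.8% lower. The 3 with the lowest p were RFC5, a subunit of the clamp loader, at 1.64 (3.11-fold), PCNA, the sliding clamp, at 0.72 (1.65-fold), and RPA1, of the single-strand binding protein, at 1.27 (2.41-fold). Against MCF10A 9 were higher in HCT116 and none lower, with a median of 0.69 against 0.011 (all probes 17.7% higher and 14.9% lower). RFC5 led at 1.71, then RPA2 at 1.03 and RFC2, also of the clamp loader, at 0.83. In MCF10A 4 were higher than in KLE and 5 lower, with a median of -0.17 against 0.015 (all probes 21.7% higher and 21.5% lower), led by RPA2 at -1.51, RFC4 at -0.82 and POLD2, a polymerase subunit, at -0.81. The S-phase genes were higher in HCT116 in 10 of 12 cases against KLE and 11 of 12 against MCF10A, and the G2/M genes in 8 of 12 against each, with 1 lower against KLE. Their part in the EXO1 difference between lines was not tested.

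None of the 14 was called in the 4 comparisons of a hairpin with shCTRL, between hairpins of 1 target or between targets (limma, with 0 to 4 of 14 at an unadjusted p under 0.05). With the letter block 2 were higher with 603 (RFC5 at 0.33 and RFC4 at 0.25), where 4.87% of all probes were called, and 3 were lower with the MSH3 than with the MSH6 hairpins (RFC5 at -0.32, RFC1 at -0.26 and RFC2 at -0.29), where 5.97% were called. MSH5, a meiotic relative of MSH3 and MSH6, was higher in HCT116 than in MCF10A by 0.34 and than in KLE by 0.32 (limma, n = 3 each, adjusted p = 0.0014 in both). MSH4, its meiotic partner, was dim and was not called between lines.

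Likeness of pattern was taken as Pearson's r over the 15 KLE arrays with each letter's mean subtracted, for the brightest probe of each member against probes of other genes. It is a description, since the arrays share groups and letters and the highest of many values is taken. MSH6 was most like RHOU, VHL and BTG3, at 0.918, 0.91 and 0.901. MSH3 ILMN_2077130 was most like TNFRSF10A, DHX37 and NOP2, at 0.942, 0.925 and 0.921. EXO1 was most like EIF4A3, RBM23 and TARDBPP3, at 0.957, 0.936 and 0.934. PMS1 was most like CLDND1, PPFIA1 and IVNS1ABP, at 0.909, 0.903 and 0.897. PMS2 was most like METTL23, S100A1 and RPL29, at 0.899, 0.868 and 0.863, and MLH3 like TCEA2, RNF31 and LYZ, at 0.901, 0.87 and 0.839.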

How the data were processed

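Gene expression was measured on Illumina BeadChips in 21 cell line samples. The authors deposited linear intensity values per probe, and the submitters' processing notes name GenomeStudio, without a version. The values do not look background-subtracted or normalized, so a low probe's difference is compressed. Detection p-values and the further cell lines of the design were not analysed here. Groups and letters come from the sample labels. HCT116 is spelled HCCT116 in the titles.

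Values were taken to log2(value + 16) and quantile-normalized over all arrays. A fit used probes that exceeded the array median on 3 or more of its arrays: 29651 for the 15 KLE arrays (12 of 12 members) and 27745 for the 9 control arrays of HCT116, MCF10A and KLE (11 of 12). Each set had 1 fit of group means in limma 3.58.1 (lmFit, eBayes, R 4.3.3). Tests are two-sided, with Benjamini-Hochberg adjustment over all probes of a fit, and called means adjusted p under 0.05. Intervals are limma's, at 95%, unadjusted. The code was tested on simulated data.

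KLE arrays of 1 letter deviated together from their group means (median correlation 0.67 in A, 0.5 in B and 0.51 in C, lowest 0.36). The letters were used as pairs in the within-letter differences and in the fit with a block. The main fits hold no letter term, so their SEs, intervals and p-values ignore this pairing. B and C arrays correlated as highly with each other (median 0.49), and A arrays negatively with both (-0.57 and -0.58), so the pairing sets A apart from B and C rather than 3 letters from each other. A fit with the letter as a block is given where it changes a call, and for some probes where it does not. Alternatives were median scaling, values as deposited, normexp background correction, an offset of 1, no filter, only the groups compared, the block, each array left out, and no letter A. The members and gene lists were chosen with earlier results of these data known. Named by rule were all member probes, the 3 genes most like each member's brightest probe, at most 3 genes of the list after excision per comparison with a call, and MSH4 and MSH5. Outside this rule, MCM3, RRM2, CCNA2, AURKA and AURKB were named after their values were seen. CDX2, CD14 and DCN were named from the marker lists. Sequences are RefSeq's, on GRCh38.p14.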

Additional observations from a re-analysis of the deposited data

Results flagged for a closer look

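MSH6 (ILMN_1729051) differed between the KLE groups with its 2 hairpins, by a direct test of 603 against 543: a log2 difference of 1.19 ± 0.18 (SE, n = 3 each, limma, adjusted p = 0.0075). The gap was 1.17, 1.27 and 1.12 within letters A, B and C, so 603 was higher in 3 of 3. It passed with each of the 6 arrays left out, at 1.04 to 1.35, and missed the threshold with only these 2 groups in the fit (adjusted p = 0.12), under median scaling (0.99, adjusted p = 1) and on values as deposited (0.93, adjusted p = 1). With the letter as a block it passed (limma, n = 3 each, adjusted p = 9.9e-05).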

How the results depend on the processing

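No called member changed direction under any alternative. The hairpin calls depended on the scaling, and the cause was not tested. Under median scaling the called members numbered 0 with 059, 543 and 603, between 603 and 543 and between MSH3 and MSH6 hairpins, with MSH6 then at -2.23 with 543 (limma, adjusted p = 0.14) and 603 at -1.24 (limma, adjusted p = 0.32). On values as deposited the same 5 counts were 0, MCF10A against KLE had 0 and HCT116 against MCF10A had 1 (MSH3). The median of all probes moved to -0.23 with 059 and -0.17 with 603 there, and the signs of uncalled hairpin differences changed there for several members. With only the groups compared in the fit there were 0 with 603 and 0 between 603 and 543 (fewer arrays), and 1 for MCF10A against KLE. With the replicate block there were 1 with 062 and 4 between MSH3 and MSH6 hairpins, and between lines, whose numbers share no deviation (median correlations 0.033, -0.19 and -0.21), MSH3 ILMN_1719471 was gained and PMS2 ILMN_2329744 lost for MCF10A against KLE, which left the count at 3. Without letter A there were 3 with each of 059, 062 and 603. Leaving out 1 array at a time gave 0 to 0 called members with 059, 0 to 1 with 062 and with 603, 1 to 1 with 543 and between 603 and 543, 0 to 0 between 062 and 059, 2 to 2 between targets, 5 to 7 for HCT116 against KLE, 1 to 3 for MCF10A against KLE and 3 to 5 for HCT116 against MCF10A. For MCF10A against KLE the count of 1 came without KLE array B or C or MCF10A array 2, and the 3 of HCT116 against MCF10A without HCT116 array 3. Over all probes, calls with 059, 062, 543 and 603, between 603 and 543 and between targets numbered 87, 67, 64, 467, 209 and 362. They were 275, 271, 219, 1445, 648 and 1769 with the block, 43, 31, 29, 155, 25 and 35 under median scaling, 26, 21, 21, 77, 2 and 10 on values as deposited, 38, 27, 33, 231, 43 and 201 with only the groups compared, and 2502, 3710, 1177, 3628, 1545 and 3401 without letter A. Between 062 and 059 these counts were 22, then 237, 17, 0, 0 and 2821 in the same order. Of the 87 calls with 059 28 were higher and 59 lower, and of the 43 under median scaling 0 were higher and 43 lower; with 603 these were 189 and 278, and 7 and 148. Between lines the calls were 12313, 11986 and 9040, and 7062, 6155 and 4281 on values as deposited. Normexp correction, an offset of 1 and no filter kept all counts of members within 1.5 times. Dim probes (MLH3, PMS2 ILMN_1670300 and ILMN_2329744, EXO1 ILMN_1719089) lie near the array median, which limits what their differences can show.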
